A study of Mus musculus with 10 samples.

Results

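Gabrg1, Kcnn2 and Chgb are 3 transcripts of neuronal signalling that single-colour Agilent arrays measured in RNA from extracellular vesicles of mouse brain. They are the genes to which a RefSeq identifier tied 1 probe each, A_51_P396883 (NM_010252) for Gabrg1, A_51_P309854 (NM_080465) for Kcnn2 and A_51_P191669 (NM_007694) for Chgb. These are 3 of the 46 probes on the array that could be named, among 60823 non-control probes in all. The genes were selected on these RefSeq identifiers and on the CIE minus Control differences of earlier results of these arrays, so those differences are described here and not tested.

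All mice were C57BL/6J males; the labels give no age. The 5 arrays of the CIE group carry RNA from mice that breathed ethanol vapor (chronic intermittent ethanol, a model of dependence in which blood alcohol is raised and allowed to fall in cycles), and the 5 Control arrays carry RNA from mice kept in room air. Exposure ran for 8 h on each of 5 days per week over 4 weeks, and the whole brain was taken right after the last day. Vesicles were pelleted by differential ultracentrifugation, about 3 µg of their RNA was sent for amplification, and the cRNA was labelled with Cy3. The whole brain was used, so no region or cell type was selected, and the labels do not say how many animals gave each sample. P-values therefore measure only how far these samples scatter, and that scatter may be technical. Arrays carry the name of their group and the number of their title, 1 to 10 without regard to group.

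The GABA-A receptor is a chloride channel of 5 subunits that carries fast inhibition in the brain and is a target of alcohol. Gabrg1 encodes its gamma-1 subunit, which is found in a limited set of brain regions and also in glia. Kcnn2 encodes SK2, a small-conductance potassium channel opened by calcium through bound calmodulin, which limits firing after an action potential and has been studied in alcohol dependence. Chgb encodes chromogranin B, an acidic protein of dense-core granules, the organelles that store peptides and amines before release. Extracellular vesicles are membrane particles shed by cells, and their RNA comes from whichever cells released them. A lower level of a transcript in such a preparation can mean fewer vesicles from the cells that make it or less of it per vesicle, and these cannot be told apart here.

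Each of the 3 probes was printed as 10 spots spread over the array, so that each array gave 10 technical measurements of each transcript. Between 69.7 and 192 intensity units marked the 75th percentile of the signal on an array, and between 61.7% and 77.2% of probes were well above background. A level below is the log2 intensity of the gene minus that 75th percentile, averaged over the spots without an outlier flag. Levels of different probes are not compared with each other. All spots used were well above background on all 10 arrays, 97 for Gabrg1, 99 for Kcnn2 and 98 for Chgb. No spot was saturated. On the marker list of neurons, 3 of 13 genes had a named probe, and these were Gabrg1, Kcnn2 and Chgb themselves. The other 10 had none, so no further neuronal marker was analysed here. Of other cell types on the marker lists, Apoe stood for 1 of 7 astrocyte genes and Mbp for 1 of 6 oligodendrocyte genes, both well above background on every array. No microglial (0 of 6) or endothelial (0 of 4) marker had a named probe, so their presence was not analysed here.

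The arrays held few named relatives of these genes. Gabrg1 was the named member among 15 GABA-A receptor subunits, Kcnn2 among the 4 calcium-activated potassium channels of its family, and Chgb among 12 granins and other dense-core granule proteins. The remaining 14, 3 and 11 genes had no named probe and are not analysed here, so nothing can be said of these families as groups. In each list 0 of 1 tested member was called in the array-wide comparison of CIE with Control. That comparison called 0 of all 43080 tested probes, so the count is no result about these genes.

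Gabrg1 was the most variable of the 3 transcripts. In intensity units it stood at 240 on Control 1, 820 on Control 4, 376 on Control 6, 300 on Control 7 and 2436 on Control 9. In the CIE group it stood at 132 on CIE 2, 123 on CIE 3, 265 on CIE 5, 181 on CIE 8 and 981 on CIE 10. Control 9 was the brightest array for Gabrg1 and CIE 3 the dimmest, a 19.9-fold span that narrowed to 10.0-fold once each array was centred. Centred levels were 1.09, 2.77, 2.18, 1.71 and 3.66 on Control 1, 4, 6, 7 and 9, and 0.34, 0.66, 1.87, 1.38 and 2.83 on CIE 2, 3, 5, 8 and 10. The groups overlapped: CIE 2 and CIE 3 lay below every Control array and Control 9 above every CIE array, while the other 7 arrays were intermixed. The mean was 1.41 ± 0.99 (SD, n = 5) for the CIE arrays and 2.28 ± 0.99 (SD, n = 5) for the Control arrays. CIE thus lay -0.87 log2 units from Control (standard error 0.55), or 0.548 times the Control level. In size this difference was smaller than the SD inside either group.

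Kcnn2 was dim but measurable. Its intensity was 38.3, 53.2, 55.1, 48.6 and 149.7 on Control 1, 4, 6, 7 and 9, and 31.5, 30.8, 39.9, 27.0 and 104 on CIE 2, 3, 5, 8 and 10. Local background lay between 12 and 14.5 units, so that even on CIE 8, its dimmest array, the background-subtracted signal was 2.25 times the local background. Its levels on the Control arrays were -1.56, -1.18, -0.59, -0.92 and -0.36 in the same order, and on the CIE arrays -1.73, -1.33, -0.87, -1.37 and -0.40. The groups overlapped almost entirely, with 1 CIE array (CIE 2) below all Control arrays and 1 Control array (Control 9) above all CIE arrays. The mean was -1.14 ± 0.51 (SD, n = 5) for the CIE arrays and -0.92 ± 0.47 (SD, n = 5) for the Control arrays. The difference of -0.22 log2 units (standard error 0.30) was, as for Gabrg1, smaller than the SD inside either group.

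Chgb was bright on every array. Its intensity was 3211, 2775, 3966, 2615 and 8190.4 units on Control 1, 4, 6, 7 and 9, and 1346, 1204, 3296, 1261 and 3990.3 on CIE 2, 3, 5, 8 and 10. Its levels were 4.83, 4.53, 5.58, 4.83 and 5.41 on the Control arrays and 3.69, 3.96, 5.50, 4.18 and 4.85 on the CIE arrays, in the same order. CIE 2, CIE 3 and CIE 8 lay below all 5 Control arrays, whereas CIE 5 and CIE 10 lay within the Control range. The mean was 4.44 ± 0.74 (SD, n = 5) for the CIE arrays and 5.04 ± 0.44 (SD, n = 5) for the Control arrays. CIE thus lay -0.60 log2 units from Control (standard error 0.36), or 0.660 times the Control level. In size this difference was smaller than the SD of the CIE arrays and larger than that of the Control arrays.

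**Figure D1:**
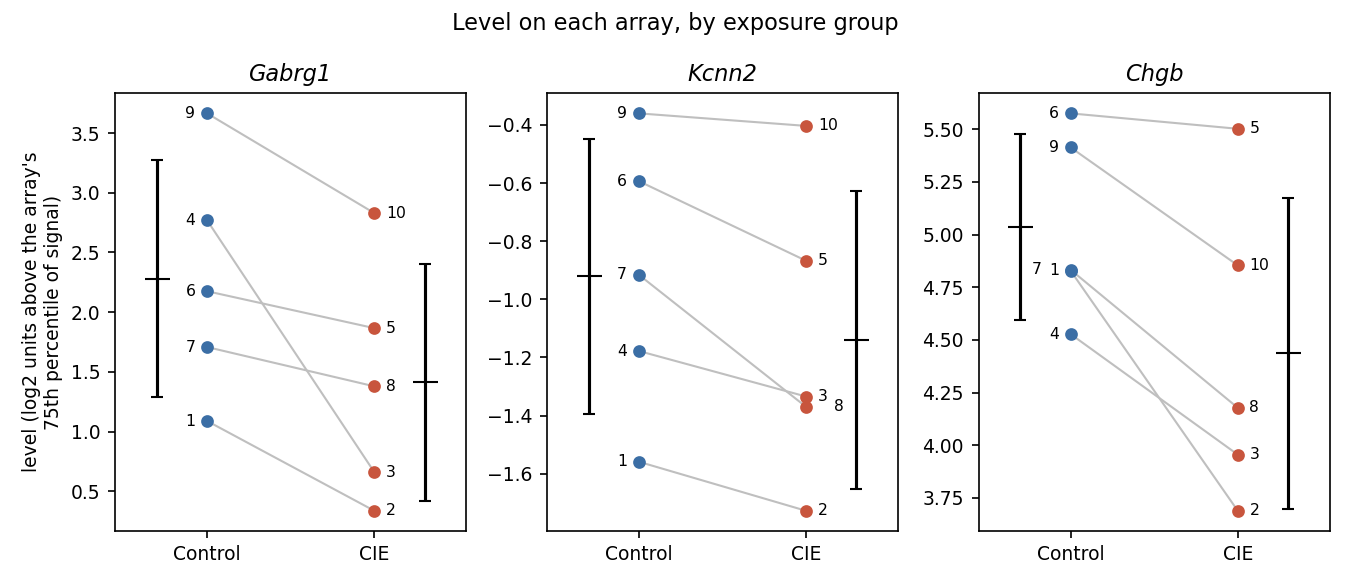
Level of Gabrg1, Kcnn2 and Chgb on each array in log2 units above the array's 75th percentile of signal, with 5 Control arrays (blue) and 5 CIE arrays (red). Numbers are title numbers, grey lines join consecutive numbers (the labels do not call these pairs), and black bars give the group mean ± SD; all 15 lines fall from Control to CIE, while the groups overlap in each panel.

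All 3 means were lower in CIE, in an experiment where 57.1% of the 43080 tested probes were lower in CIE as well. A probe was tested where 5 or more arrays had it well above background. The array-wide comparison by limma called 0 of 43080 probes at an adjusted p under 0.05, 0% of those tested. At an unadjusted p under 0.05 it counted 921 of these 43080 probes and the ordinary test of the same model 1082. Both counts are below the share of 0.05 that this threshold passes on average where no probe differs. In absolute size, the Gabrg1 difference exceeded those of 98.2% of tested probes, that of Chgb 92.6% and that of Kcnn2 50.1%. Since these differences are what the genes were chosen for, this is a description of the choice. Without Control 9 the Gabrg1 difference was -0.52, and the Kcnn2 difference was -0.07 without CIE 2 and -0.08 without Control 9.

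The spread between arrays was far wider than the error of the measurement. Over the replicate spots of an array, the SD was 0.09 log2 units for Gabrg1, 0.12 for Kcnn2 and 0.06 for Chgb. The value of an array, a mean of up to 10 spots, therefore had a standard error of 0.03, 0.04 and 0.02 log2 units. Arrays of the same group differed with an SD of 0.99 for Gabrg1, 0.49 for Kcnn2 and 0.61 for Chgb, which is 34.8, 12.6 and 29.3 times that error. Spot noise thus made up 0.0826% of the variance within groups for Gabrg1, 0.628% for Kcnn2 and 0.116% for Chgb. Spots of 1 array share the labelled sample, so their agreement covers printing, hybridisation within the array and scanning, and leaves out the steps before. The within-group SD of Gabrg1 was larger than that of 90.8% of tested probes, against 50.9% for Kcnn2 and 66.1% for Chgb, where the median over tested probes was 0.49.

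**Figure D2:**
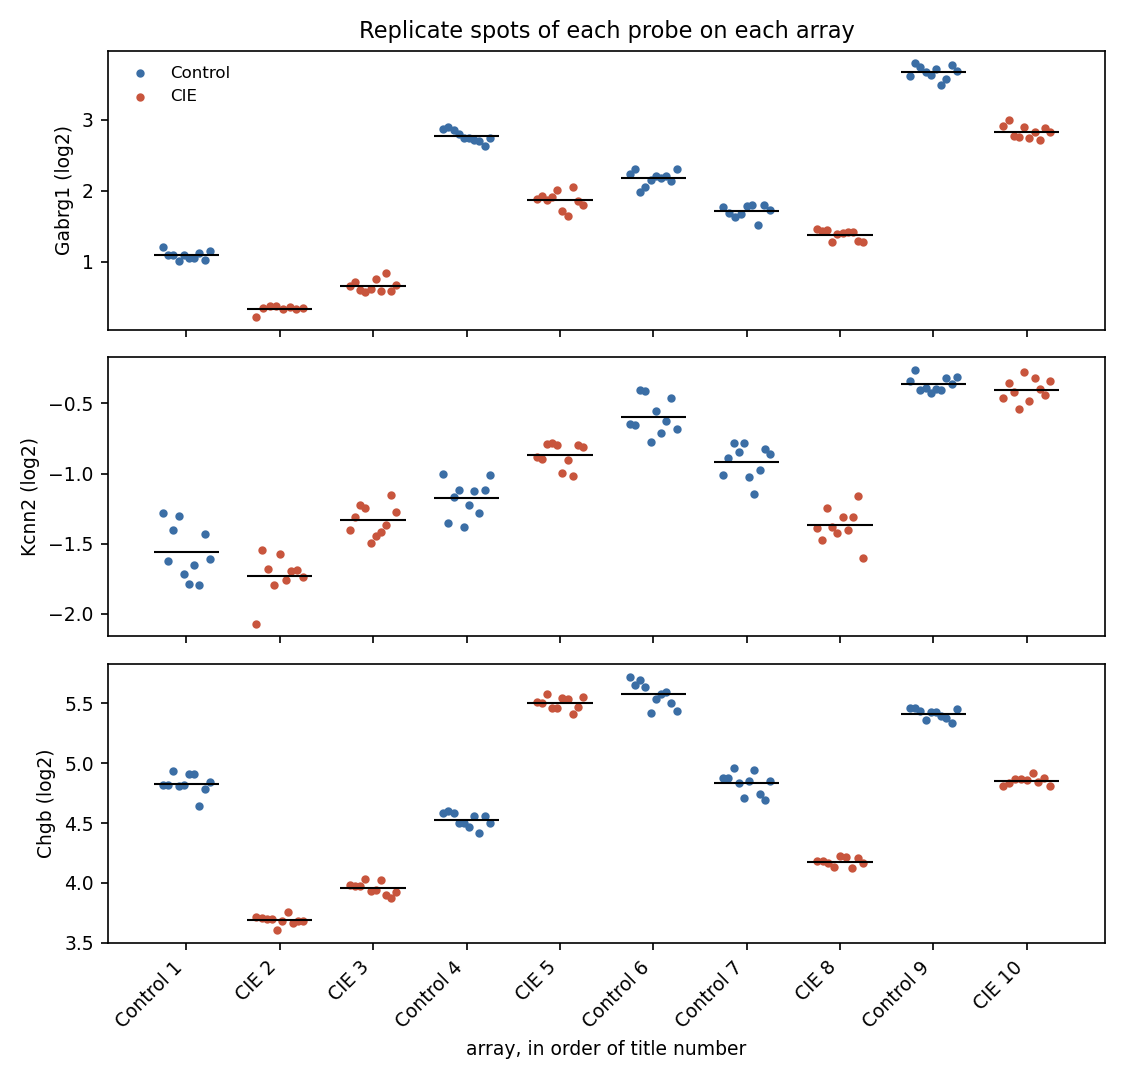
Replicate spots of the Gabrg1, Kcnn2 and Chgb probes on each of the 10 arrays, in log2 units relative to the array's 75th percentile (Control blue, CIE red; black lines are array means). Spots of an array cluster tightly around their mean, with a pooled SD of 0.09, 0.12 and 0.06 while array means of Gabrg1 run from 0.34 to 3.66 log2 units.

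Most arrays could be ranked apart on spot noise alone. From the lowest to the highest, Gabrg1 ran from CIE 2 and CIE 3 through Control 1, CIE 8, Control 7, CIE 5, Control 6, Control 4 and CIE 10 to Control 9. In that order 1 of 9 neighbouring pairs, Control 4 and CIE 10, differed by less than the SD of single spots. For Chgb this held for 2 of 9 neighbouring pairs, Control 1 with Control 7 and Control 7 with CIE 10. For Kcnn2 it held for 3 of 9, CIE 8 with CIE 3, Control 7 with CIE 5 and CIE 10 with Control 9. CIE 2 was lowest for all 3 transcripts, and Control 9 was highest for Gabrg1 and Kcnn2, but Control 6 was highest for Chgb.

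Arrays with consecutive title numbers resembled each other, and each such couple (1 and 2, 3 and 4, and so on) holds 1 Control and 1 CIE array. Across all tested probes, the closest array was the one with the consecutive number for 7 of 10 arrays. The number couple accounted for 91.9% of the sum of squares of Kcnn2, 69.6% of that of Gabrg1 and 69.1% of that of Chgb. The median over tested probes was 71.4%, so that Gabrg1 and Chgb were ordinary in this respect and Kcnn2 stood above 92.1% of probes. The exposure group accounted for 19.3% in Gabrg1, 23.4% in Chgb and 5.82% in Kcnn2. Couples outnumber groups and so take up a larger share even where nothing differs, so couple and group shares are not compared. The group shares were not set against those of other probes.

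Within the couples, the CIE array was lower in 5 of 5 for each of the 3 transcripts, a pattern shared by 8.43% of the tested probes. The couple differences average to the group differences for which the genes were chosen. The count of 5 of 5 is therefore a description of the choice, and the 8.43% is over probes not chosen in that way. For Gabrg1 the log2 differences were -0.75 (CIE 2 against Control 1), -2.11 (CIE 3 against Control 4), -0.31 (CIE 5 against Control 6), -0.33 (CIE 8 against Control 7) and -0.84 (CIE 10 against Control 9). For Kcnn2 they were -0.17, -0.16, -0.27, -0.45 and -0.04 in the same order. For Chgb they were -1.14, -0.57, -0.07, -0.66 and -0.56. The size varied widely: Gabrg1 fell to 0.232 times the Control level in the couple of 3 and 4, whereas Chgb was at 0.951 times in that of 5 and 6. With the couple as a block, the standard error was 0.26 for Gabrg1, 0.16 for Kcnn2 and 0.19 for Chgb. Limma again called 0 probes over the array, with 6389 of 43080 at the unadjusted level, here above a share of 0.05. The array measures described below differed in the same couples. The labels do not say that these numbers mark a shared litter, day or preparation.

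The 3 transcripts varied together between arrays. Over the 10 arrays Gabrg1 and Kcnn2 correlated with Pearson r = 0.848 (permutation p = 0.00256, 0.00768 adjusted over the 3 pairs of genes) and Spearman rho = 0.891 (permutation p = 0.0013, adjusted 0.0039). Kcnn2 and Chgb correlated with r = 0.770 (permutation p = 0.0114, adjusted 0.0171) and rho = 0.818 (permutation p = 0.00585, adjusted 0.00878). Gabrg1 and Chgb correlated less, with r = 0.676 (permutation p = 0.0331, adjusted 0.0331) and rho = 0.709 (permutation p = 0.0268, adjusted 0.0268). All permutation tests of correlations were two-sided. The genes were chosen with their group differences known, and all 3 lay lower in CIE. That shared shift enters these pooled correlations and their p-values, and only the values with group means removed leave it out.

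Removing the group means left the relation of Gabrg1 with Kcnn2 (r = 0.851, adjusted permutation p = 0.00765) and of Kcnn2 with Chgb (r = 0.769, adjusted permutation p = 0.0145), but not that of Gabrg1 with Chgb (r = 0.589, adjusted permutation p = 0.0757). Slides were told apart by scan time only, so a slide here means arrays that share a scan time. On slide 1, which held 8 of the arrays, r was 0.829, 0.826 and 0.694 for Gabrg1 with Kcnn2, Kcnn2 with Chgb and Gabrg1 with Chgb. The 2 arrays of slide 2 gave no value of their own. CIE 2 and Control 9 lay farthest from the median of both Gabrg1 and Kcnn2, and without them r was 0.708, 0.614 and 0.435, with adjusted permutation p of 0.158, 0.165 and 0.285 (exact, n = 8), so that none of the 3 relations passed the threshold without these most extreme arrays, at a smaller n. That of Gabrg1 with Kcnn2 passed when either array alone was left out (r = 0.794 in both cases, adjusted exact permutation p = 0.0355 without CIE 2 and 0.0369 without Control 9, n = 9). Since arrays with consecutive numbers resembled each other, the 10 arrays may count for fewer independent ones, and these p-values may be too small.

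Many other probes correlated as strongly, although the median r over the other tested probes was 0.18 with Gabrg1, 0.17 with Kcnn2 and 0.09 with Chgb. Of 42856 other tested probes, 3.30% followed Gabrg1 more closely than Kcnn2 did, and 15.3% more closely than Chgb did. Probes with r above 0.9 numbered 547 for Gabrg1, 479 for Kcnn2 and 590 for Chgb, between 1.12% and 1.38% of the probes. Among the 42 other named genes tested, the closest to Gabrg1 was Olfr1307, an olfactory receptor gene (r = 0.907 over 10 arrays), followed by Kcnn2 and by Gamt, which makes creatine (r = 0.840). Closest to Kcnn2 were Mbp, the myelin basic protein (r = 0.912), Rps4l, a gene like that of ribosomal protein S4 (r = 0.896), and Bambi, a decoy receptor of TGF-beta signalling (r = 0.894). Closest to Chgb were Rps4l (r = 0.887), Bambi (r = 0.803) and Apoe, a lipid carrier made mainly by astrocytes (r = 0.774), with Kcnn2 in rank 4. Gabrg1 stood at rank 7 for Chgb, and Chgb at rank 7 for Gabrg1. These values are descriptions over arrays that share centring and resemble each other by number.

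Of the lists of glial markers, Mbp and Apoe had a named probe. Mbp differed by 0.03 log2 units between CIE and Control and Apoe by -0.08, although Mbp followed Kcnn2 from array to array. Olfr1307 differed by -0.32, Bambi by -0.29, Rps4l by -0.12 and Gamt by -0.05. The part of other cell types in the differences of Gabrg1, Kcnn2 and Chgb was not tested; of the 4 lists of such cell types, 2 had 1 named probe and 2 had none.

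Measures of the array itself moved with Gabrg1. As for the gene pairs, p-values of correlations with array measures may be too small, since arrays with consecutive numbers resembled each other. Of all probes, 67.4% ± 5.04 (SD, n = 5) stood well above background on the CIE arrays against 71.5% ± 4.04 on the Control arrays, with the CIE array below its Control partner in all 5 couples. Gabrg1 followed that share with r = 0.878 (permutation p = 0.001, 0.006 adjusted over 12 pairs of gene and measure) and rho = 0.891 (permutation p = 0.0012, adjusted 0.0144). Within slide 1 the correlation was 0.974 (exact permutation p = 9.92e-05, n = 8, adjusted 0.00119), and without CIE 8 and Control 9, the arrays farthest from the median share, it was 0.952 (exact permutation adjusted p = 0.00417, n = 8). It was 0.848 once the group means were removed (adjusted permutation p = 0.0121). Spearman's rho did not pass there (rho = 0.770, adjusted permutation p = 0.0752). Nor did rho pass when Control 9 or CIE 10 alone was left out (rho = 0.850, adjusted exact permutation p = 0.0729 in both cases). Over all 10 arrays, 0.945% of tested probes had a Pearson correlation with this share as strong as r = 0.878, in either direction. Gabrg1 was chosen with its group difference known, and this share also differed between the groups. That percentage therefore rests partly on the choice, and it was not computed with group means removed.

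The 3' minus 5' signal of the mouse GAPDH control probes rises when RNA is fragmented or copied short of its 5' end. This signal averaged 0.90 ± 0.29 (SD, n = 5) log2 units over the CIE arrays against 0.58 ± 0.32 over the Control arrays, and was higher in the CIE array of all 5 couples. Gabrg1 was lower where it was higher, with r = -0.899 (permutation p = 0.00043, adjusted 0.00516) and rho = -0.842 (permutation p = 0.00386, adjusted 0.0183). Within slide 1 the correlation was -0.888 (exact permutation adjusted p = 0.0204, n = 8) and after removing group means -0.873 (adjusted permutation p = 0.0121). Without Control 4 and Control 9, the arrays with the values farthest from the median, it was -0.773 (exact permutation adjusted p = 0.149, n = 8), so that it no longer passed. Spearman's rho did not pass within slide 1 (rho = -0.857, exact permutation adjusted p = 0.0643, n = 8). It also failed after removing group means (rho = -0.818, adjusted permutation p = 0.0713). Nor did rho pass when CIE 2, CIE 3, Control 4, Control 9 or CIE 10 alone was left out. A Pearson correlation as far from 0 as -0.899 was seen for 0.404% of tested probes. This percentage too rests partly on the choice of Gabrg1 by its group difference, since the GAPDH signal differed between the groups.

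Kcnn2 followed the share of probes well above background more loosely (r = 0.768, permutation p = 0.0101, adjusted 0.0404), and this did not hold within slide 1 (r = 0.735, exact permutation adjusted p = 0.141, n = 8) or without CIE 8 and Control 9 (r = 0.709, exact permutation adjusted p = 0.196, n = 8). It also lost its call on leaving out any array except Control 4 or Control 6. Chgb had r = 0.552 with that share (permutation p = 0.0997, adjusted 0.199) and -0.527 with the GAPDH measure (permutation p = 0.116, adjusted 0.199), neither of which passed. As strong a correlation with the share was seen for 31.4% of tested probes in the case of Chgb and 7.03% in that of Kcnn2. The choice of genes limits these percentages in the same way as for Gabrg1.

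**Figure D3:**
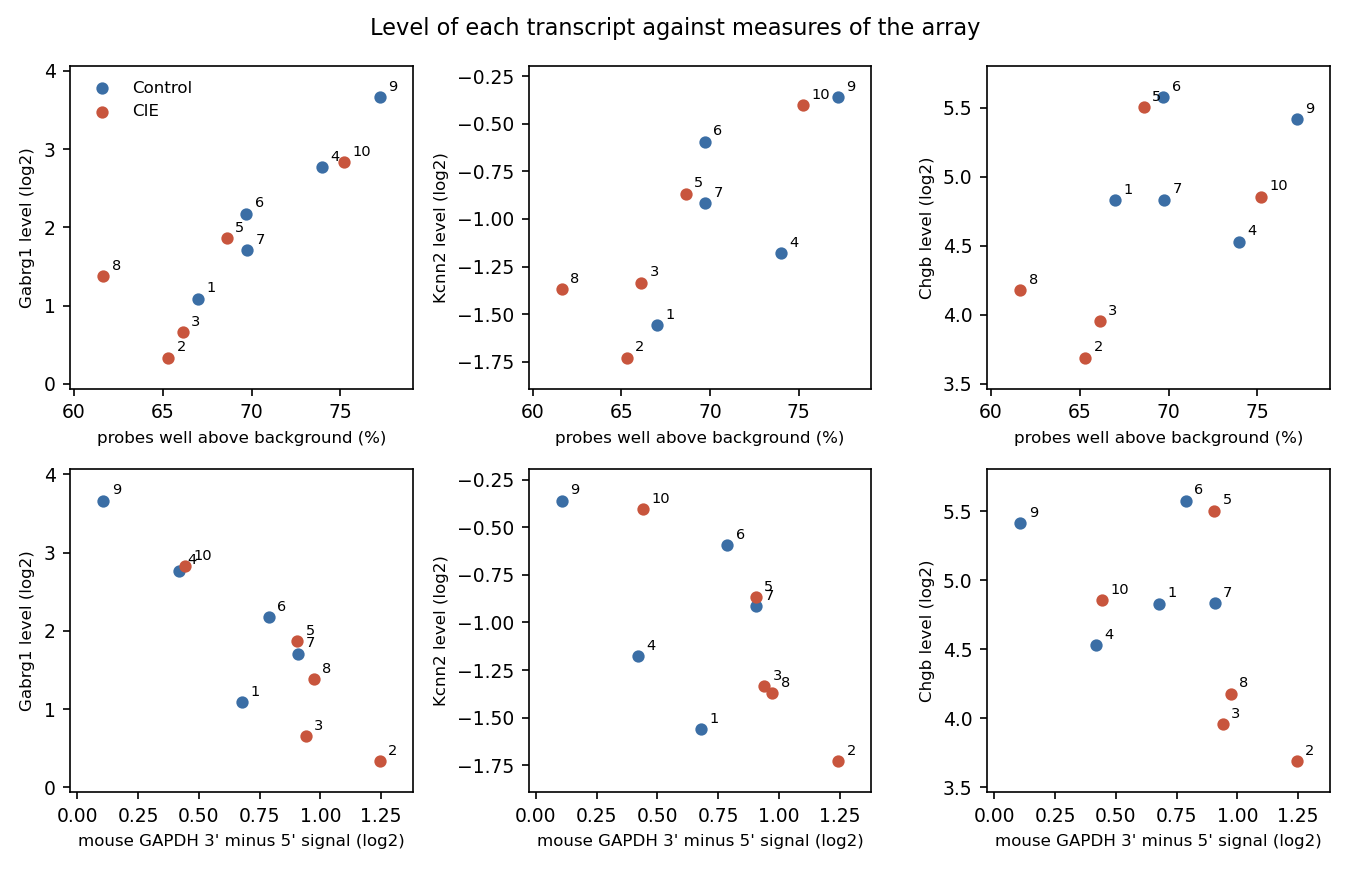
Levels of Gabrg1, Kcnn2 and Chgb (vertical axes, log2 units relative to the 75th percentile) against the percentage of probes well above background (upper row) and the 3' minus 5' signal of mouse GAPDH in log2 units (lower row), for 5 Control (blue) and 5 CIE (red) arrays numbered by title. Gabrg1 follows both measures (r = 0.878 and -0.899), with CIE 8 off the line in the upper panel, and Chgb scatters widely.

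The group difference of Gabrg1 was close to 0 when either measure entered the model. With the share of probes well above background as a covariate it was -0.10 with a standard error of 0.37, and with the GAPDH 3' minus 5' signal 0.04 with a standard error of 0.36. That of Kcnn2 turned from -0.22 to 0.12 with either covariate (standard errors 0.26 and 0.30). That of Chgb was -0.37 and -0.36 (standard errors 0.38 and 0.41), so that it kept its sign. Both covariates were added after the values were seen, and both differed between the groups in the same couples as the transcripts did, so that exposure and these array measures cannot be told apart within 10 arrays.

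Slide and centring changed the size of the differences but not their sign. Slide 2, told apart by its scan time, held CIE 8 and CIE 10 and no Control array. A difference blocked by slide therefore rests on the 8 arrays of slide 1, where it was -1.33 for Gabrg1, -0.39 for Kcnn2 and -0.65 for Chgb. With slide as a random block it was -0.96, -0.25 and -0.61. With no centring the differences were -1.23, -0.58 and -0.96, on a scale where the median tested probe lay at -0.42, against -0.05 after centring. With normexp background correction and quantile normalization the Kcnn2 difference was -0.09. The authors' deposited table gave -0.80, -0.22 and -0.45. Control 7 and CIE 8 stood apart from the rest in a control probe for human GAPDH, and without both arrays the differences were -1.001, -0.16 and -0.59. Over the other 8 arrays that probe did not correlate detectably with Gabrg1, Kcnn2 or Chgb (r = -0.371, -0.399 and -0.511, exact permutation adjusted p = 0.385, 0.377 and 0.285).

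**Figure D4:**
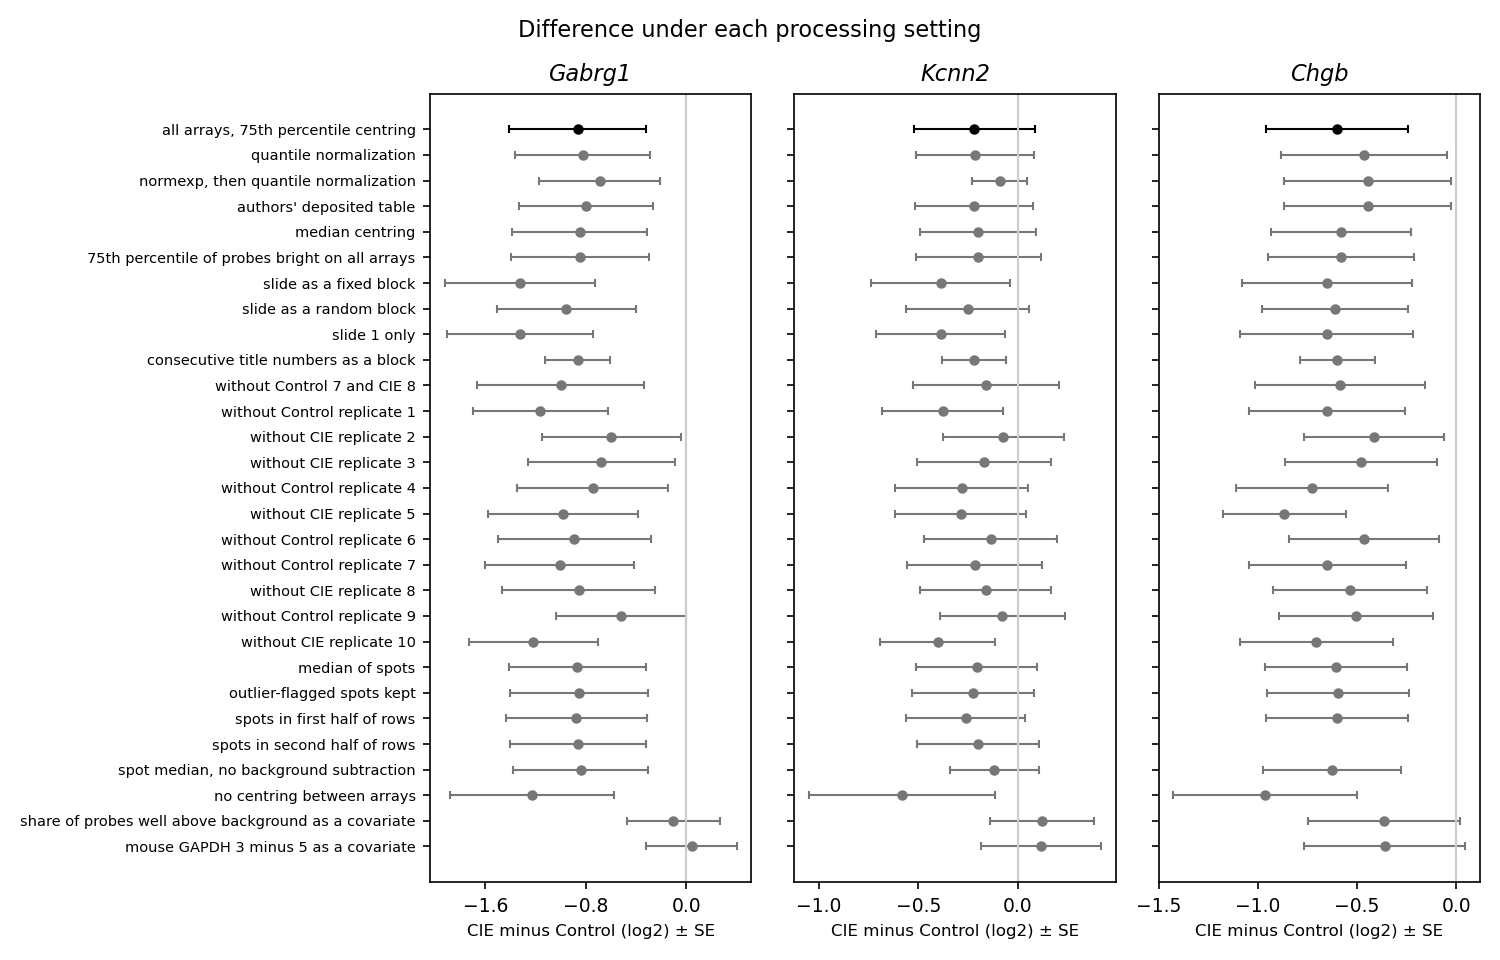
CIE minus Control difference of Gabrg1, Kcnn2 and Chgb in log2 units (points) with its standard error from limma (bars) under each processing setting, the reported setting in black at the top. Chgb has no value for the lower rows of the array, where it has 1 spot; the Gabrg1 difference reaches 0.04 and that of Kcnn2 0.12 with an array measure as a covariate, and those of Chgb stay below 0.

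The promoters of Gabrg1 and Chgb are shown so that the regions around their start sites can be set side by side. That of Kcnn2 is not shown. A relation of these sequences to the levels on the arrays was not tested. Both are from RefSeq (build GRCm38.p6), read 5′ to 3′ on the gene's strand from 250 bases before the annotated start to 50 bases after it. Capitals mark matches to 3 motifs, searched on both strands: the cAMP response element TGACGTCA, the GC box GGGCGG, which reads as CCGCCC on the other strand, and the TATA box TATAAA, which reads as TTTATA there. No match overlapped another.
Gabrg1 (chr5:70842568-70842867, minus strand): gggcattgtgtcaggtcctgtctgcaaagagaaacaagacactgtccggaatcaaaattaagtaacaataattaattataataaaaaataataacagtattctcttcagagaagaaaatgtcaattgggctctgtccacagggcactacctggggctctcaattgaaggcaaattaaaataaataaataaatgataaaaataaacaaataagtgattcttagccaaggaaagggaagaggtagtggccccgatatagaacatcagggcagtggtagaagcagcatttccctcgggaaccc
Chgb (chr2:132781392-132781691, plus strand): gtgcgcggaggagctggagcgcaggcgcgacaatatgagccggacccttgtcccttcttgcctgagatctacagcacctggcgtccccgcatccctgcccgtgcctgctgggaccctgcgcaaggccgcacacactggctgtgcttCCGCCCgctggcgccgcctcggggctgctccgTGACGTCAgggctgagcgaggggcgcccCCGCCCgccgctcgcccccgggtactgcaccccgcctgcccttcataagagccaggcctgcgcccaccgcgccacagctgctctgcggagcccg

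The Chgb window is rich in G and C (72.7%) and holds 31 CpG dinucleotides, and that of Gabrg1 is rich in A and T (38.3% G and C) with 3 CpG dinucleotides and an unbroken run of 28 A or T bases. The median of 32851 mouse promoter windows was 52.7% G and C and 7 CpG dinucleotides. Chgb held a cAMP response element from base 179 to 186 of the window, a motif found in 1.79% of the windows, and 2 GC boxes, present in 35.7%. Neither window held the TATA letters, which 13.6% did, and that of Gabrg1 held none of the 3 motifs. A match is a description of the letters and says nothing of binding, and a window without a match says only that these letters are absent from it. The arrays give no measurement at these promoters, and the sequences of the probes themselves are not given here.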

How the data were processed

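Single-colour arrays of 5 Control and 5 CIE samples were scanned, and per the file headers Agilent Feature Extraction 11.0.1.1 made the deposited intensity of each spot by background subtraction and detrending. The authors' deposited table was taken as log2 values, because it correlated with quantile-normalised log2 intensities at r of 0.988 to 0.991; its normalization is not stated and its column medians were 4.60. From the intensities, spots flagged as outliers were left out, log2 values of replicate spots averaged, and each array centred on its 75th percentile over 60823 non-control probes. Probes well above background on at least 5 arrays (43080) were fitted with limma 3.58.1 in R 4.3.3, with Benjamini-Hochberg adjustment at 0.05, on CIE against Control. The fit was checked on simulated data. Correlations used 100000 permutations, or all of them below 10 arrays. Genes were named where a RefSeq identifier matched the RefSeq table of GRCm38.p6, and up to 3 nearest named genes by Pearson r are given for each. The header names mm9 as the array's build, so no coordinate of a probe is given. Slides were told apart by scan time. The members and lists were chosen with earlier results of these data known. No gMeanSignal column was at hand, so normexp ran on the median signal. Alternatives covered normalization, background correction, spots, blocks by slide and number, covariates and left-out arrays. The number of arrays limits the precision.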

Additional observations from a re-analysis of the deposited data

Results flagged for a closer look

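The control probe Human-GAPDH_5 stood at 2.80 log2 units on Control 7, where the nearest Control array was at 0.47, and at 3.49 on CIE 8, where the nearest CIE array was at 0.36. In each case the gap to the nearest array was large against the range of the group. These were 2 of 14 groups of 5 values examined, and chance picks out about 1 group in 20. Gabrg1, Kcnn2 and Chgb themselves had no array this far from the others of its group.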

How the results depend on the processing

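Chgb was lower in CIE under all 27 alternatives run (-0.96 to -0.36), Gabrg1 under 27 of 28 (-1.33 to 0.04) and Kcnn2 under 26 of 28 (-0.58 to 0.12). The exceptions were the covariates named above, added after seeing the data. All alternatives reuse the same arrays, on whose differences the genes were chosen, so these counts are descriptions. The number block cannot change the difference, and slide as a fixed block gives the same difference as slide 1 alone. Leaving out 1 array gave -1.22 to -0.52 for Gabrg1, -0.40 to -0.07 for Kcnn2 and -0.87 to -0.41 for Chgb. Array-wide, limma called 0 probes under each setting fitted over all probes, which leaves out the alternative spot summaries, with 402 (without Control 9) to 6389 (number block) at the unadjusted level. The correlation of Gabrg1 with Chgb lost its call with quantile normalization (0.623), with group means removed (0.589), on slide 1 (0.694), and without Control 7 and CIE 8 (0.670), as did that of Kcnn2 with Chgb in the last case (0.753). Without CIE 2 and Control 9, r was 0.708 for Gabrg1 with Kcnn2, 0.435 for Gabrg1 with Chgb and 0.614 for Kcnn2 with Chgb. Leaving out 1 array gave 0.546 to 0.752 for Gabrg1 with Chgb (lost without CIE 2, CIE 3, CIE 8 or Control 9) and 0.679 to 0.857 for Kcnn2 with Chgb (lost without CIE 2). For array measures, Kcnn2 against the share of probes well above background lost its call on slide 1 (0.735) and without CIE 8 and Control 9 (0.709), with 0.683 to 0.856 on leaving out 1 array. Gabrg1 against GAPDH lost it without Control 4 and Control 9 (-0.773). These calls are by Pearson r. By Spearman's rho, Gabrg1 also lost its calls with both measures once group means were removed (0.770 with the share and -0.818 with GAPDH). So did Kcnn2 with the share (0.673). Kcnn2 against GAPDH ran from -0.749 to -0.519 and passed without Control 4. Against the 75th percentile, where nothing passed, the sign turned without Control 9 and CIE 10 for Kcnn2 (-0.371) and Chgb (-0.167), and leaving out 1 array gave -0.0664 to 0.428 for Chgb. The cause of these changes was not tested; settings with fewer arrays also have less power. The groups share no replicate numbers, so the blocked fit used consecutive title numbers, which the labels do not call pairs. The dimness of Kcnn2, at its lowest 2.25 times local background, limits its precision.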
